A study of Saccharomyces cerevisiae with 74 samples.

Results

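Amino acid biosynthesis mRNAs are the messages of the enzymes with which budding yeast makes its own amino acids. Their levels and their crosslinking to 3 translation initiation factors were followed through heat shock and glucose withdrawal. The group was chosen by name, as 57 protein-coding genes of 10 pathways, and 56 of them were used among the 6545 protein-coding genes of the RNA-seq table and the 6473 of the crosslinking tables. MET17 was left out because it is MET15, a marker gene deleted in this strain, and it had no row in the RNA-seq table. All 56 genes were matched to a locus tag of the R64 assembly in RefSeq. The choice followed names and not a cutoff on measured values, but earlier results of these data were known when it was made.

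Yeast makes each amino acid through a dedicated chain of enzymes, and many of these genes are targets of the transcription factor Gcn4, which is translated when uncharged tRNAs accumulate and is the core of general amino acid control. Pathway-specific regulators, such as Leu3, Lys14, Met4 and Gln3, act beside it. The proteins that were crosslinked act before these enzymes are made: eIF4A and Ded1 are RNA helicases that help the small ribosomal subunit scan the 5′ end of an mRNA, and eIF4B stimulates eIF4A.

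All strains were Saccharomyces cerevisiae BY4741 (MATa his3Δ1 leu2Δ0 met15Δ0 ura3Δ0) grown at 30 °C in synthetic medium with 2% glucose and without tryptophan. Binding was measured by CRAC, in which a tagged protein is crosslinked to RNA by UV light and the RNA fragments that purify with it are sequenced. Each protein was expressed from its own promoter: eIF4A (TIF1, N-terminal tag), eIF4B (TIF3, C-terminal tag) and Ded1 (N-terminal tag), with 4 untagged libraries as background. Cultures were left untreated (control; 4 eIF4B, 3 Ded1 and 6 eIF4A libraries), transferred to the same medium for 16 min (mock shift; 3, 2 and 4), transferred to 2% glycerol and 2% ethanol for 30 s (2, 2 and 3) or 16 min (3, 3 and 4), or shifted to 42 °C for 16 min (heat shock; 4, 3 and 4). eIF4B also had 2 libraries of heat shock with 0.1 mg/mL cycloheximide, which blocks translation elongation. RNA-seq of polyadenylated RNA with a spike-in of S. pombe RNA covered wild-type cells (3 control, 2 glucose withdrawal 16 min, 3 heat shock and 2 heat shock with cycloheximide libraries), cells lacking XRN1, the cytoplasmic 5′ to 3′ exonuclease (2 control, 2 heat shock), and cells lacking SKI2, a helicase that feeds the exosome (2 control, 2 heat shock). The RNA-seq libraries were described as biological duplicates. For CRAC nothing states that libraries came from separate cultures, so p-values measure the spread between libraries, which may be technical, and eluates of a protein were combined before the gel step.

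The 52 libraries of tagged proteins held 183689 to 4385132 counted reads, of which 13.7% to 72.4% lay on mRNAs. The 18 RNA-seq libraries held 26398967 to 46538567 counted yeast reads and 531145 to 990246 S. pombe reads. The untagged libraries held 347 to 46692 reads, 4 to 229 of them on the amino acid mRNAs. XRN1 had 59 to 202 reads in the xrn1 deletion libraries and at least 5093 elsewhere, and SKI2 had 5 to 14 reads in the ski2 deletion libraries and at least 1750 elsewhere, as labelled. RNA-seq was made in 2 sets, libraries A to F and H to S; glucose withdrawal was only in the first, cycloheximide and both deletions only in the second, and wild-type control and heat shock in both. One eIF4A library carries 16 min of glucose withdrawal in its title and 30 s in its description, and was placed at 30 s. eIF4B heat shock library 98 was counted on a later annotation version than the other 3 of its group, as were both cycloheximide libraries.

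RNA levels below are reads per kilobase per 1000 S. pombe reads, which keeps a global fall in mRNA visible. In untreated wild-type cells the amino acid mRNAs were abundant: their median level was 11.5, against 2.10 for 5500 mRNAs, 54 of the 56 lay above that median and 28 were among the highest 10%. The levels ran from 1.88 for MET16, PAPS reductase of sulfate assimilation, to 51.3 for ILV5, acetohydroxyacid reductoisomerase of valine and isoleucine synthesis. Together they made up 2.85% ± 0.15 (SD, n = 3) of the reads on mRNAs.

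Heat shock lowered every one of these mRNAs on the spike-in scale, and 53 or 55 of them on scales that set the bulk of genes near no change. All 56 were called lower in wild-type cells at 42 °C (edgeR quasi-likelihood test, Benjamini-Hochberg adjusted p below 0.05 over 6319 genes), against 63.3% of all genes tested. The median log2 change was -2.60 for the 56 and -0.77 for all genes, and 55 of the 56 fell further than the median gene. The fitted changes ran from -4.38 for ILV3, dihydroxyacid dehydratase, to -0.66 for CPA1, the small subunit of the arginine-specific carbamoyl phosphate synthetase. The median member kept 16.5% of its control level, and the share of mRNA reads on the group dropped to 0.607% ± 0.071 (SD, n = 3). On those other scales the median of all genes became 0.13 (TMM, 2347 genes lower and 2764 higher) or 0.05 (DESeq2 size factors) and that of the members -1.69 or -1.77, and CPA1 turned to 0.24 or 0.16.

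Glucose withdrawal for 16 min moved the same group less. It lowered 48 of the 56 mRNAs and raised 2, CPA1 and GLN1, against 40.4% of all genes called lower and 18.4% called higher. The median log2 change was -1.09 for the members and -0.26 for all genes, the median member kept 47.1% of its control level, and the group held 2.01% ± 0.01 (SD, n = 2) of mRNA reads. Under TMM scaling 46 members were lower and 2 higher, with 2150 of all genes lower and 2040 higher. In a direct comparison 52 members were lower in heat shock than in glucose withdrawal, against 58.3% of all genes, with a median of -1.63 for the members and -0.59 for all genes (46 lower and 4 higher under TMM scaling). Within libraries A to F alone, where both stresses were measured, 53 were lower in heat shock.

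With cycloheximide present during heat shock the mRNAs kept more of their level. Of the 56, 52 were higher than in heat shock alone and 1, ASN1, was lower, against 78.8% and 2.88% of all genes; the medians were 1.33 for the members and 1.02 for all genes. This rise is on the spike-in scale: under TMM scaling 30 members were higher and 7 lower (2138 and 2053 of all genes), and under DESeq2 size factors 32 and 6. Against untreated cells 50 members were still lower and 1, CPA1, was higher, while 32.1% of all genes were lower and 39.4% higher. The medians there were -1.21 for the members and 0.11 for all genes, and the group held 0.940% ± 0.157 (SD, n = 2) of mRNA reads, below each of the control libraries.

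**Figure D1:**
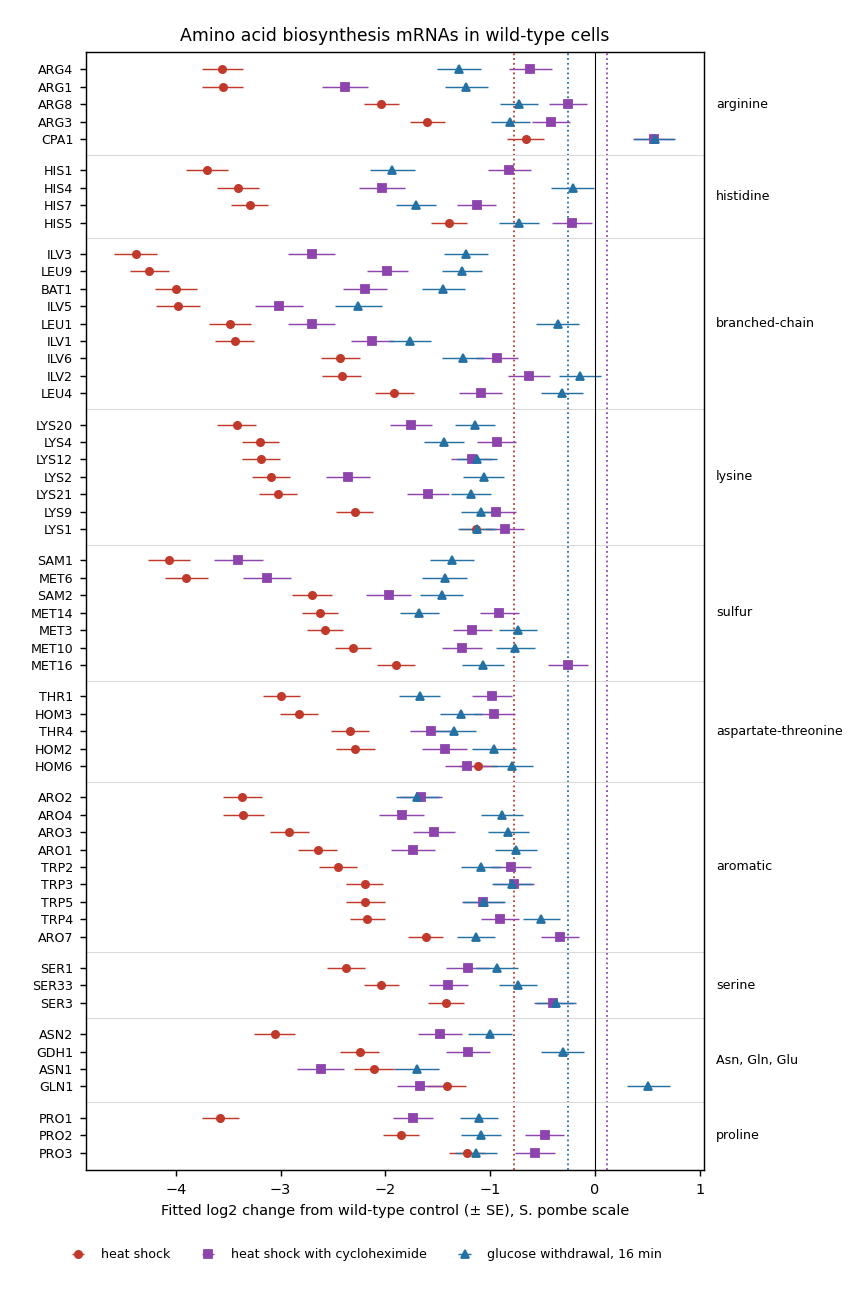
Fitted log2 change from the wild-type control (± SE) on the S. pombe scale for each of the 56 mRNAs, grouped by pathway, in heat shock (circles), heat shock with cycloheximide (squares) and glucose withdrawal (triangles); dotted lines mark the median of all genes tested in the same colours. Every heat shock point lies left of 0, and CPA1 and GLN1 are the only triangles right of 0.

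**Figure D2:**
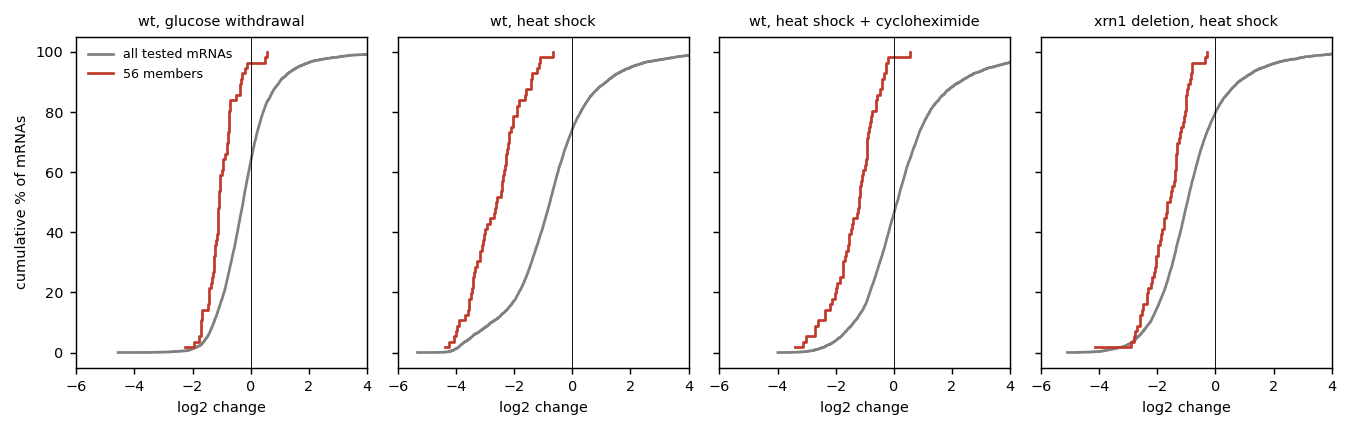
Cumulative percentage of mRNAs (y axis) against log2 change on the S. pombe scale (x axis) for the 56 amino acid mRNAs and for all genes tested, in 3 wild-type comparisons with the control and in heat shock of the xrn1 deletion. The member curve lies left of the curve of all genes at its median in each panel, -2.60 against -0.77 in wild-type heat shock and -1.62 against -0.97 in the xrn1 deletion.

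The pathways differed in how far their mRNAs fell. Those of branched-chain amino acids fell furthest in heat shock, with a median log2 change of -3.48 over 9 mRNAs, followed by histidine (-3.35, 4 mRNAs) and lysine (-3.09, 7 mRNAs). Sulfur amino acids followed at -2.62 (7), aromatic amino acids at -2.45 (9), aspartate and threonine at -2.34 (5), and asparagine, glutamine and glutamate at -2.18 (4). Arginine and serine both stood at -2.04 (5 and 3 mRNAs) and proline at -1.85 (3). Within most pathways the members spread over more than 1 log2 unit, so these medians order the lists and were not tested against each other.

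In the branched-chain pathway, whose early steps are shared by valine, isoleucine and leucine, ILV5 stood at 50.7, 53.6 and 49.7 in the 3 wild-type control libraries and at 3.48, 3.03 and 3.26 in the 3 heat shock libraries. Its log2 change was -3.98 ± 0.21 (adjusted p = 1.09e-66). In glucose withdrawal ILV5 read 12.0 and 9.45, the largest fall of any member there at -2.26 ± 0.22, and with cycloheximide it read 5.59 and 7.10. The wild-type heat shock libraries of ILV5 lie below all other wild-type libraries, and those with cycloheximide lie between them and glucose withdrawal. ILV3 went from 24.3, 26.1 and 25.7 to 1.21, 1.07 and 1.37 in heat shock, a log2 change of -4.38 ± 0.21, and to 11.8 and 9.85 in glucose withdrawal. The groups of ILV3 do not overlap.

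LEU4 and LEU9 encode the 2 α-isopropylmalate synthases that open the leucine branch, with LEU4 the more abundant. LEU4 read 13.1, 13.8 and 11.8 in control and 3.45, 3.65 and 3.20 in heat shock (-1.91 ± 0.18), whereas LEU9 read 7.17, 7.77 and 6.87 and 0.398, 0.380 and 0.368 (-4.25 ± 0.19). LEU4 thus kept a larger part of its mRNA than its isozyme, though reads from near-identical stretches of such pairs were placed at random by the aligner and their split is uncertain. In glucose withdrawal LEU4 stood at 11.6 and 9.19 (-0.32 ± 0.20, adjusted p = 0.17) and LEU9 at 3.36 and 2.66 (-1.27 ± 0.19). The other 5 members of the pathway (BAT1, ILV1, ILV2, ILV6 and LEU1) changed by -4.00 to -2.42 in heat shock; ILV2, the catalytic subunit of acetolactate synthase, and LEU1, isopropylmalate isomerase, were not called in glucose withdrawal (-0.14 and -0.36).

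HIS1, ATP phosphoribosyltransferase and the first enzyme of histidine synthesis, was both the most abundant of its 4 mRNAs and the one that fell furthest. It read 29.4, 31.7 and 42.5 in control and 2.67, 2.87 and 2.43 in heat shock, a log2 change of -3.70 ± 0.20. With cycloheximide HIS1 stood at 17.1 and 22.1, 2.89 ± 0.20 above heat shock alone. Against the controls of both sets the fit left it at 56.8%. Both cycloheximide libraries are of the set H to S, whose wild-type control was the highest of HIS1, at 42.5. HIS7 and HIS4 fell by a like amount in heat shock (-3.29 and -3.40) and HIS5, histidinol-phosphate aminotransferase, by less (-1.39). HIS4, a multifunctional enzyme, was not called in glucose withdrawal at -0.21 ± 0.20, beside -1.93 for HIS1 and -1.71 for HIS7.

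Lysine is made in yeast through α-aminoadipate, and LYS20 and LYS21 encode the 2 homocitrate synthases that open this route. LYS20 read 12.7, 13.4 and 12.0 in control and 1.23, 1.32 and 1.02 in heat shock (-3.42 ± 0.18), and LYS21 read 10.7, 11.3 and 10.5 and 1.29, 1.38 and 1.32 (-3.03 ± 0.18). Their levels and changes were alike under each treatment, with 6.52 and 4.99 for LYS20 and 5.37 and 4.18 for LYS21 in glucose withdrawal; the split of reads between them is uncertain. All 7 lysine mRNAs were lower in glucose withdrawal, in the narrow range of -1.44 to -1.06. LYS1, which encodes the last enzyme of the route, fell least in heat shock (-1.13 ± 0.16) and was not called higher with cycloheximide (0.28 ± 0.18).

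Among the sulfur genes MET6, methionine synthase, was the most abundant mRNA. Its control libraries read 31.4, 33.2 and 28.2 and its heat shock libraries 2.14, 2.40 and 1.69, a log2 change of -3.90 ± 0.20. Cycloheximide left it at 3.09 and 3.99, only 0.77 ± 0.20 above heat shock alone. SAM1 and SAM2 encode the 2 S-adenosylmethionine synthetases and had similar control levels, 20.5, 20.9 and 20.9 for SAM1 and 24.7, 26.8 and 26.1 for SAM2. In heat shock SAM1 read 1.26, 1.02 and 1.46 (-4.06 ± 0.20) and SAM2 4.02, 3.68 and 4.26 (-2.70 ± 0.19). With cycloheximide SAM1 read 1.81 and 2.12 and SAM2 5.48 and 7.76, which is 0.66 ± 0.20 and 0.73 ± 0.20 above heat shock alone. In glucose withdrawal the pair changed alike, by -1.37 and -1.46. The sulfate assimilation mRNAs were less abundant: MET14, APS kinase, went from 7.38, 8.00 and 8.85 to 1.10, 0.918 and 1.91 and MET16 from 1.57, 1.74 and 2.34 to 0.447, 0.464 and 0.603. With cycloheximide MET16 read 1.58 and 1.57 and was not called different from control (-0.26 ± 0.19, adjusted p = 0.22).

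HOM2, aspartic β-semialdehyde dehydrogenase, led the aspartate and threonine genes with 36.4, 38.6 and 35.7 in control and 7.89, 7.51 and 7.34 in heat shock (-2.28 ± 0.19). THR1, homoserine kinase, fell furthest there, from 11.6, 11.8 and 11.9 to 1.45, 1.34 and 1.64 (-2.99 ± 0.18), and it read 5.44 and 6.45 with cycloheximide. HOM6, homoserine dehydrogenase, fell least (-1.12 ± 0.18). With cycloheximide HOM6 was not called different from heat shock alone (-0.10 ± 0.20) and stood at 42.8% of control. The control and heat shock libraries of all 3 genes do not overlap.

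ARO4 and ARO3 encode the 2 DAHP synthases that open aromatic amino acid synthesis, and ARO2 encodes chorismate synthase at the end of its shared steps. ARO4 read 21.7, 23.4 and 24.5 in control and 1.94, 1.52 and 3.35 in heat shock (-3.35 ± 0.19), with the last value, from the second library set, above the others. ARO3 read 15.5, 16.7 and 15.9 and 2.21, 2.32 and 1.84 (-2.92 ± 0.18). ARO2 read 15.1, 16.4 and 18.1 and 1.58, 1.65 and 1.58 (-3.37 ± 0.19). The 4 tryptophan mRNAs, in cells grown without tryptophan, changed by -2.45 (TRP2) to -2.17 (TRP4) in heat shock; TRP3, which pairs with Trp2 in anthranilate synthase, read 6.39, 6.66 and 6.81 in control and 1.46, 1.57 and 1.30 in heat shock. In glucose withdrawal all 9 aromatic mRNAs were lower, by -1.69 (ARO2) to -0.51 (TRP4).

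SER1, phosphoserine aminotransferase, went from 16.7, 18.8 and 20.1 in control to 3.79, 4.16 and 2.80 in heat shock (-2.37 ± 0.18). SER3 and SER33 encode the 2 phosphoglycerate dehydrogenases before it. SER3 read 7.96, 8.57 and 7.48 and 2.84, 2.40 and 3.71 (-1.42 ± 0.17), and SER33 read 4.86, 5.24 and 5.34 and 1.25, 1.41 and 1.10 (-2.04 ± 0.17). With cycloheximide SER3 stood at 6.11 and 6.05, not called different from control (-0.40 ± 0.19), and SER33 at 1.77 and 2.13 (-1.40 ± 0.19). SER3 was not called in glucose withdrawal over all libraries (-0.37 ± 0.19, adjusted p = 0.079), but was within libraries A to F alone (-0.42).

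Among the nitrogen assimilation genes, ASN1 and ASN2 encode the 2 asparagine synthetases and had like control levels, 27.0, 29.3 and 31.6 for ASN1 and 22.4, 24.6 and 25.1 for ASN2. In heat shock ASN1 read 6.63, 6.96 and 6.84 (-2.11 ± 0.19) and ASN2 2.72, 3.03 and 2.92 (-3.06 ± 0.19). With cycloheximide they moved apart, to 4.01 and 5.55 for ASN1 and 7.02 and 10.2 for ASN2, with log2 changes from heat shock alone of -0.51 ± 0.21 (adjusted p = 0.017) and 1.58 ± 0.20. ASN1 was the 1 member called lower with cycloheximide, and that call was lost without library J (-0.30) and within libraries H to S alone (-0.52). GLN1, glutamine synthetase, read 25.3, 27.3 and 31.5 in control, 44.3 and 35.4 in glucose withdrawal and 11.0, 15.2 and 5.29 in heat shock. The 2 glucose withdrawal libraries of GLN1 lie above all 3 controls (0.51 ± 0.20, adjusted p = 0.024); the call was lost without library C (0.34), A (0.44) or B (0.49). Its heat shock libraries were spread by set, with the lowest value in the set of H to S. GDH1, the NADP-dependent glutamate dehydrogenase, fell in heat shock (-2.25 ± 0.19) and was not called in glucose withdrawal (-0.31 ± 0.20).

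Arginine and proline synthesis held both strong and weak responders. ARG1, argininosuccinate synthetase, read 29.4, 30.6 and 25.6 in control and 2.56, 2.32 and 2.43 in heat shock, and ARG4, argininosuccinate lyase and the next enzyme, read 21.4, 22.8 and 22.4 and 1.85, 2.22 and 1.60. Both changed by -3.55 in heat shock, but with cycloheximide ARG1 stayed at 4.66 and 6.27 while ARG4 read 10.7 and 18.2. The rise over heat shock alone was 1.17 ± 0.20 for ARG1 and 2.94 ± 0.20 for ARG4, the largest of the 56. ARG8, acetylornithine aminotransferase, went from 2.10, 2.21 and 1.83 to 0.528, 0.443 and 0.521 (-2.04 ± 0.17). CPA1, whose mRNA is known for an upstream open reading frame that represses it when arginine is plentiful, read 11.2, 12.0 and 9.87 in control, 7.16, 6.81 and 7.00 in heat shock, 18.2 and 14.6 in glucose withdrawal and 16.3 and 16.2 in heat shock with cycloheximide. CPA1 was the weakest to fall in heat shock (-0.66 ± 0.18, adjusted p = 3.38e-04; not called within libraries H to S alone at -0.50). It was higher than control in glucose withdrawal (0.57 ± 0.20, adjusted p = 0.0074; not called without library C at 0.41) and with cycloheximide (0.56 ± 0.20, adjusted p = 0.0071). Of the proline genes, PRO1, γ-glutamyl kinase, went from 3.92, 4.34 and 4.49 to 0.396, 0.351 and 0.321 in heat shock (-3.57 ± 0.18) and PRO3, pyrroline-5-carboxylate reductase, from 12.8, 13.7 and 15.4 to 5.94, 6.14 and 5.93 (-1.22 ± 0.17).

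**Figure D3:**
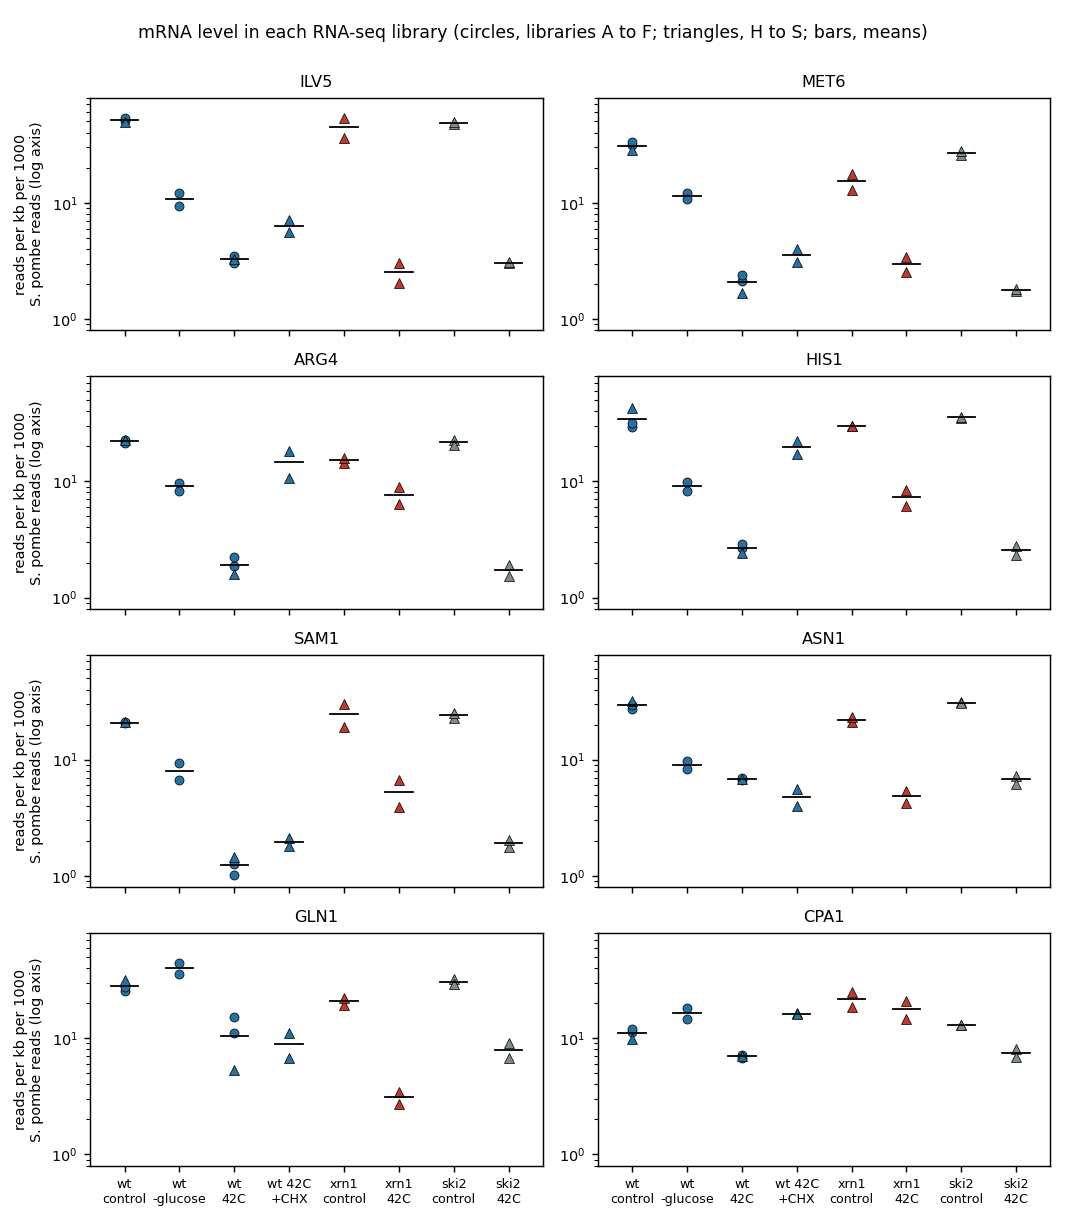
RNA level in reads per kilobase per 1000 S. pombe reads (log axis) of 8 amino acid mRNAs in each of the 18 RNA-seq libraries, by strain and treatment; circles are libraries A to F, triangles H to S, and bars are group means. The 3 wild-type heat shock libraries lie below all wild-type controls in each panel, while CPA1 and GLN1 alone have both glucose withdrawal libraries above the controls.

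Loss of XRN1 changed this group before any stress. In untreated xrn1 deletion cells 31 members were lower than in wild type and 5 were higher, although 42.6% of all genes were called higher and 11.8% lower. The median log2 difference was -0.52 for the members and 0.32 for all genes. LEU1 had the largest deficit (-1.73 ± 0.21). The 5 higher members were CPA1 (0.97), ARG8 (0.94), TRP3 (0.90), MET14 (0.69) and MET16 (0.42). TRP3, for example, read 10.9 and 13.8 in the 2 xrn1 controls against 6.39, 6.66 and 6.81 in wild type, and ARG8 read 3.69 and 4.17 against 2.10, 2.21 and 1.83. Under TMM scaling 46 members were lower and 3 higher, with 2265 of all genes lower and 1951 higher. The 2 xrn1 control libraries differed: without library M only 13 members were lower and 4 higher, and within libraries H to S alone 20 were lower and 3 higher.

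In heat shock the xrn1 deletion cells also lowered these mRNAs, but by less. Of the 56, 54 were lower at 42 °C than in the xrn1 control, against 67.5% of all genes, with medians of -1.62 for the members and -0.97 for all genes (38 lower and 2 higher under TMM scaling). The median member kept 32.65% of its level in xrn1 deletion cells against 16.5% in wild type, and the share of mRNA reads on the group went from 1.93% ± 0.18 to 0.780% ± 0.069 (SD, n = 2 each). Summed over the group, reads per S. pombe read went from 0.992 ± 0.169 to 0.311 ± 0.072 in the deletion (SD, n = 2 each). In wild type they went from 1.403 ± 0.043 to 0.227 ± 0.009 (SD, n = 3 each). The smaller fall of the group thus held both a lower start and a higher end. The difference between the strains in their heat shock change, tested as an interaction, was called for 40 members. It was positive, a smaller fall in the deletion, for 39 of them and negative for 1, against 12.0% and 12.6% of all genes. The median difference was 0.95 for the members and -0.07 for all genes. Both directions were seen about equally over all genes, and mostly the positive one here. These values of all genes are of the fit over both library sets. They are no background for the member counts of the repeats that follow. Within libraries H to S alone, where both strains were measured, 23 were positive and 1 negative with a median of 0.95, and without library M or library S the positive count was 27 or 26.

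The largest strain differences were those of ARG4, HOM3 and ARG1. ARG4 went from 14.3 and 16.0 in the xrn1 control to 6.40 and 8.92 in xrn1 heat shock, while wild type reached 1.85, 2.22 and 1.60; the difference in log2 change was 2.57 ± 0.29 (adjusted p = 1.70e-15). HOM3, aspartate kinase, was next at 2.47 ± 0.27 and was not called lower in heat shock of the deletion (-0.36 ± 0.21). ARG1 followed with 12.2 and 18.1 and 5.18 and 7.93 and a difference of 2.34 ± 0.29. SAM2 read 12.1 and 16.1 and 6.83 and 9.11 (1.88 ± 0.28), and SAM1 19.0 and 30.1 and 3.91 and 6.66 (1.85 ± 0.28). In these 5 genes the fall was thus smaller in the deletion, although for all but SAM1 the deletion also started from a lower level.

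A fitted strain difference at or below 0 was seen in 4 members. ILV5 read 35.7 and 53.2 in the xrn1 control and 2.03 and 3.04 in heat shock, a difference from wild type of -0.15 ± 0.29 (adjusted p = 0.75). The 3 other members whose difference was below 0 were ASN1 (-0.08 ± 0.29), SER3 (-0.65 ± 0.27) and GLN1 (-1.34 ± 0.29), of which only GLN1 was called. GLN1 fell from 19.4 and 22.2 to 2.72 and 3.45 in the deletion, but within libraries H to S alone its difference was -0.18 and not called, and there SER3 was the 1 member called negative (-1.06). By pathway, a positive difference was called for 7 of 9 aromatic, 7 of 9 branched-chain and 6 of 7 lysine mRNAs. It was also called for 6 of 7 sulfur, 3 of 4 histidine and 1 of 3 serine mRNAs. Of the arginine mRNAs 2 of 5 were called, ARG4 (2.57) and ARG1 (2.34). Over all genes 12.0% were called positive. The other pathways are not listed and the lists are small, so these counts do not rank the pathways.

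**Figure D4:**
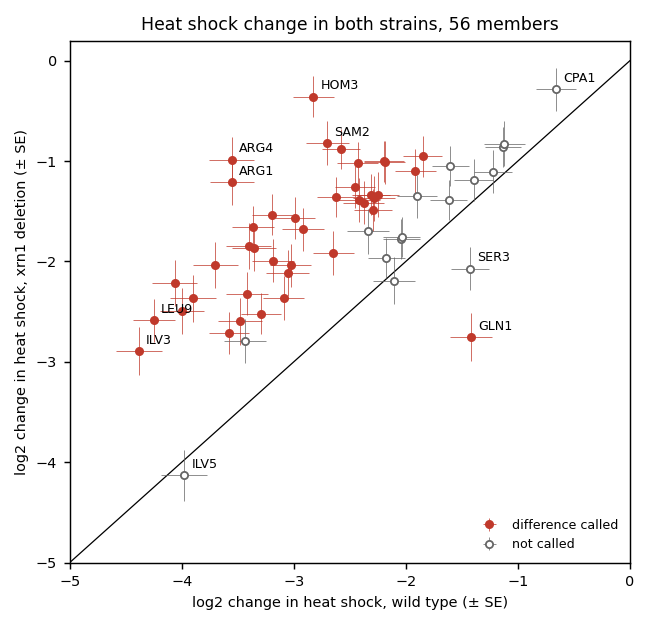
Log2 change in heat shock (± SE) of the 56 mRNAs in the xrn1 deletion (y axis) against that in wild type (x axis), with the line of equal change; filled points are members whose difference between strains was called. Filled points lie above the line except GLN1, and ILV5 lies near the line at -3.98 in wild type and -4.13 in the deletion.

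The ski2 deletion gave no called difference for any member. In untreated cells 0 of 56 differed from wild type by edgeR, 0 at an unadjusted p below 0.05 and 0 by DESeq2, against 0.253% of all genes called in either direction, so a count of 0 is near the background; fitted differences ran from -0.34 to 0.25. In heat shock all 56 were lower than the ski2 control, against 65.0% of all genes, with a median of -2.63 for the members and -0.95 for all genes. Their heat shock change differed from wild type in 0 members by edgeR (3 at an unadjusted p below 0.05, 0 by DESeq2), against 0.0317% of all genes in either direction, and the fitted differences ran from -0.54 to 0.86. ILV5, for example, read 47.9 and 49.1 in the ski2 control and 3.03 and 3.10 in heat shock.

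The rest of the amino acid network moved in part with the 56. Of 31 other enzymes of the same pathways, 28 were lower and 3 higher in heat shock, against 63.3% and 17.4% of all genes, with a median of -1.69. The 3 were ARO9, an aromatic aminotransferase used in catabolism (2.45 ± 0.18), GDH3, a second NADP-dependent glutamate dehydrogenase (0.62 ± 0.20), and BAT2, the cytosolic branched-chain aminotransferase (0.44 ± 0.17), whose mitochondrial counterpart BAT1 fell (-4.00 ± 0.20). Of 17 regulators, 16 were lower and 1, ARG82, higher. GCN4 mRNA averaged 42.5 ± 3.0 (SD, n = 3) in control, 7.21 ± 0.17 (SD, n = 3) in heat shock and 19.2 ± 2.7 (SD, n = 2) in glucose withdrawal, log2 changes of -2.56 ± 0.19 and -1.15 ± 0.21. In xrn1 deletion cells GCN4 changed by -2.42, with a difference from wild type of 0.14 ± 0.29 (adjusted p = 0.77). BAS1, an activator of histidine and purine genes, fell furthest of the regulators (-3.85 ± 0.18). In glucose withdrawal 23 of the other enzymes were lower and 3 higher, and 14 of the 17 regulators were lower, against 40.4% of all genes lower and 18.4% higher. For the strain difference in heat shock 12 other enzymes were positive and 2 negative, against 12.0% and 12.6% of all genes. Of the regulators 2 (MET28 and BAS1) were positive, a share near the background.

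Binding was read as reads on the gene per 1000000 counted reads of a CRAC library (RPM). In unstressed cells the amino acid mRNAs took 2.36% ± 0.03 of eIF4B reads on mRNAs (SD, n = 4), 2.02% ± 0.21 of Ded1 reads (SD, n = 3) and 1.84% ± 0.25 of eIF4A reads (SD, n = 6). In the 4 untagged libraries, with 4 to 229 reads on the group, the share ran from 0.268% to 4.65%, a range that holds all 3 values. Per mRNA, with RPM divided by length and by the wild-type control RNA level, they were bound less than the median mRNA counted. Only mRNAs with a mean of at least 10 control reads were counted, 5113 for eIF4B, 5535 for Ded1 and 4518 for eIF4A. Rare mRNAs pass this cutoff only if well bound, and the members are abundant (median level 11.5 against 2.10). No comparison with mRNAs of like abundance was made. The median log2 ratio to that of all mRNAs counted was -0.30 for eIF4B, -0.94 for Ded1 and -0.88 for eIF4A. ASN2 was lowest for eIF4B (-1.99) and LEU4 highest (1.33), with 18 of 56 above the median mRNA. For Ded1 the extremes were SER3 (-2.64) and ARG8 (0.92), with 6 of 56 above, and for eIF4A they were TRP2 (-3.09) and HIS7 (0.59), with 10 of 53 above. A mock shift called none of the members in either direction for eIF4B (0 by DESeq2, 1 at an unadjusted p below 0.05; 0.0360% of all genes), Ded1 (0 by DESeq2, 2 unadjusted; 0% of all genes) or eIF4A (0 by DESeq2, 1 unadjusted; 0% of all genes) by edgeR.

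Heat shock lowered the reads of all 3 factors on these mRNAs. For eIF4B 44 of the 56 were lower, against 23.5% of all genes tested, with a median log2 change of -3.08 for the members and -1.45 for all genes. For Ded1 42 were lower, against 23.0%, with medians of -2.53 and -0.82. For eIF4A 20 of 55 tested were lower, against 6.86%, and 37 had an unadjusted p below 0.05. The eIF4A count was 12 without library 54 or 83 and 6 in the earlier libraries alone. Of the members 12 had no read in its 4 heat shock libraries. With those set to 3 reads over the group, a bound that covers counting error only, the eIF4A medians were -4.43 for the members and -2.07 for all genes. The share of mRNA reads on the group dropped to 0.607% ± 0.019 for eIF4B (SD, n = 4), 0.553% ± 0.059 for Ded1 (SD, n = 3) and 0.299% ± 0.081 for eIF4A (SD, n = 4). Beside it, the share of RNA-seq reads on mRNAs dropped from 2.85% to 0.607%, and the part of mRNA loss in the lower binding was not tested. Scaled to reads on mRNAs in place of all reads, the lower counts were 26 for eIF4B, 38 for Ded1 and 10 for eIF4A. The shares of all genes above are for adjusted p on the scale of all reads. They are no background for these counts or for the unadjusted count.

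**Figure D5:**
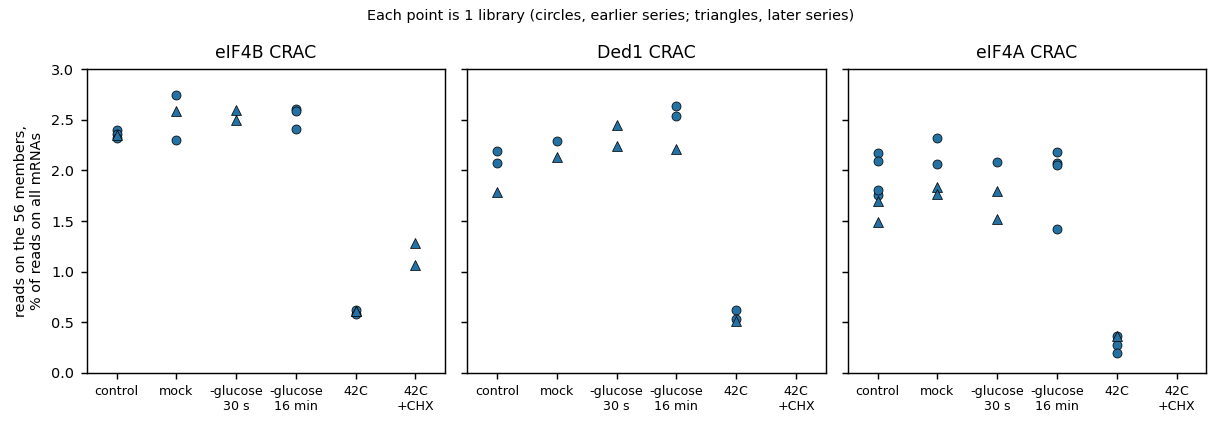
Reads on the 56 amino acid mRNAs as a percentage of reads on all mRNAs in each CRAC library of eIF4B, Ded1 and eIF4A, by treatment; each point is 1 library, and only eIF4B has libraries with cycloheximide. Heat shock libraries lie at 0.196% to 0.623%, and the control, mock and glucose withdrawal libraries at 1.42% or higher.

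ILV5 had the highest eIF4B RPM of the members, with 1065, 1313, 1239 and 1167 RPM in the 4 control libraries. Per mRNA its log2 ratio to the median mRNA was 0.12, beside 1.33 for LEU4. In heat shock ILV5 read 8.60, 0, 37.7 and 34.7 RPM, a log2 change of -5.63 ± 0.58. Ded1 on ILV5 went from 703, 890 and 599 RPM to 27.2, 25.7 and 28.2 RPM (-4.76 ± 0.36), with all heat shock libraries of both proteins below the controls. eIF4A on ILV5 was more variable, at 1009, 537, 1346, 482, 815 and 585 RPM in control and 115, 0, 0 and 4.08 RPM in heat shock (-4.68 ± 1.05, adjusted p = 0.0011). ILV3 fell furthest for eIF4B, from 733, 708, 880 and 534 RPM to 0, 0, 8.66 and 2.98 RPM (-7.31 ± 0.69). For Ded1 ILV3 went from 341, 362 and 393 RPM to 11.1, 20.2 and 24.1 RPM (-4.32 ± 0.44). In the untagged libraries ILV5 had 5, 29, 8 and 0 reads and MET6 0, 47, 0 and 0. As RPM of these shallow libraries that is 14409, 621, 983 and 0 for ILV5 and 0, 1007, 0 and 0 for MET6. On this scale the untagged values thus reach those of the tagged controls, though from few reads.

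MET6 read 1005, 1218, 1025 and 1016 RPM with eIF4B in control and 47.3, 0, 77.9 and 94.7 RPM in heat shock (-4.17 ± 0.56). LEU4 read 823, 1035, 1005 and 956 RPM and 55.9, 10.9, 176 and 120 RPM (-3.33 ± 0.52). HOM2 read 509, 1002, 1037 and 926 RPM and 0, 54.4, 147 and 111 RPM (-3.40 ± 0.58). In each the control and heat shock libraries do not overlap, and the shallowest heat shock library, 56, gave the lowest value for MET6 and LEU4. With Ded1 the heat shock changes were -2.68 ± 0.38 for MET6, -2.81 ± 0.37 for LEU4 and -1.78 ± 0.36 for HOM2, all called. With eIF4A MET6 (-3.72 ± 1.20) and LEU4 (-5.55 ± 1.50) were called and HOM2 (-2.38 ± 1.37) was not.

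All 9 branched-chain mRNAs were lower in heat shock for both eIF4B and Ded1, and 7 of 9 for eIF4A. Over all genes the shares called lower were 23.5%, 23.0% and 6.86%. Lysine mRNAs were lower in 7 of 7 for eIF4B and 6 of 7 for Ded1, and the 4 of asparagine, glutamine and glutamate in all cases for both. Serine, arginine and sulfur genes had the smallest shares called for eIF4B, with 1 of 3, 2 of 5 and 4 of 7. A call also depends on read number, so these shares do not rank the pathways. In the 4 eIF4B controls MET16 had 3, 40, 1 and 60 reads and ILV5 580, 2009, 1082 and 2331. The mRNAs not called for eIF4B included CPA1, ARG8, MET14, MET16 and SER3, and those not called for Ded1 included CPA1, MET14, MET16 and SER3. For eIF4A SAM1 had 450, 154, 408, 0, 100 and 284 reads in the 6 control libraries and none in the 4 of heat shock. HOM6 (0 to 390 reads in control) and HIS4 (38 to 317) also had none in heat shock. Zeros occurred outside heat shock too, for SAM1 in control library 52, mock library 17 and glucose withdrawal library 45, for HOM6 in libraries 52 and 53 and for HIS4 in libraries 53 and 51, so no fold is given for these genes.

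With cycloheximide during heat shock 14 members were bound more by eIF4B than in heat shock alone, against 7.36% of all genes, with medians of 1.79 and 1.24. ILV3 read 134 and 154 RPM in the 2 libraries, 5.0 ± 0.68 above heat shock alone on the log2 scale, and ILV5 read 124 and 296 RPM (3.13 ± 0.57). MET6 read 214 and 340 RPM (2.23 ± 0.59), while LEU4 (1.11 ± 0.57) and HOM2 (1.38 ± 0.62) were not called. The share of mRNA reads on the group was 1.18% ± 0.15 (SD, n = 2), between heat shock and control. Without cycloheximide library 99 only 4 members were called, and scaled to reads on mRNAs, by TMM or by DESeq2 size factors 5, 3 or 6 were. The 2 cycloheximide libraries and heat shock library 98, all counted on the later annotation version, had 5.44% to 12.9% of counted reads on tRNAs, while heat shock libraries 23, 56 and 75 had 50.1% to 54.9%, and their counted reads exceeded their mapped reads (612647 against 487625 in library 97).

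In glucose withdrawal fewer of these mRNAs were called lower for eIF4B than in heat shock, and their median stood near that of all genes. The share of all counted eIF4B reads on the group went from 1.57% in control to 0.409% at 30 s and 0.546% at 16 min. At 30 s 8 members were lower, against 10.7% of all genes, with a median of -1.91 for the members and -2.24 for all genes. At an unadjusted p below 0.05 the member count was 27, for which no share of all genes is given. The 8 called at adjusted p were LEU4, ILV3, ILV6, SAM1, HOM2, HOM6, ARO4 and SER1, and none was called without library 72 or without library 73. At 16 min 15 were lower, against 17.5%, with medians of -1.62 and -1.75, and 8 were lower without library 22. After 30 s the group held 2.55% ± 0.07 of eIF4B mRNA reads (SD, n = 2), and after 16 min 2.54% ± 0.11 (SD, n = 3), beside 2.36% in control, and scaled to reads on mRNAs no member was called lower at either time and 1 was called higher at 16 min. ILV5 read 377 and 373 RPM at 30 s and 131, 152 and 145 RPM at 16 min (-3.07 ± 0.57). HOM2 read 92.3 and 47.4 RPM at 30 s (-3.63 ± 0.78) and 235, 204 and 222 RPM at 16 min (-1.98 ± 0.60).

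Few members were called for Ded1 or eIF4A in glucose withdrawal. Ded1 had 1 member called lower at 30 s, LYS9 (-2.73 ± 0.71), against 8.12% of all genes, and none without library 70. At 16 min Ded1 had 0 (4 lower and 1 higher at an unadjusted p below 0.05, 2 by DESeq2), against 3.90% in either direction. The medians at 16 min were -0.22 for the members and -0.71 for all genes, and the share on the group was 2.46% ± 0.22 (SD, n = 3). eIF4A had 0 called by edgeR at 30 s (6 unadjusted, 2 by DESeq2; 0% of all genes) and 0 at 16 min (5 unadjusted, 2 by DESeq2; 0.144% of all genes). Its medians with the bound for genes without reads were -1.32 and -0.62 for the members and -1.57 and -0.81 for all genes. The eIF4A libraries held 197561 to 1916658 counted reads, and their median standard error in heat shock was 1.95 on the log2 scale, against 0.76 for eIF4B and 0.49 for Ded1.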

How the data were processed

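The deposited values are counts of reads per gene made by the authors. CRAC reads were demultiplexed with pyBarcodeFilter, trimmed with Flexbar, collapsed by random barcode with pyFastqDuplicateRemover, filtered with bbduk, aligned with Novoalign to an intronless genome with multiply mapping reads placed at random, and counted with pyReadCounters. RNA-seq reads were aligned to joined S. cerevisiae and S. pombe genomes and counted on the antisense strand. The deposited RPKM values served only to recover gene lengths. A row with a numeric name, which names no gene, held at most 0.0181% of CRAC and 0.0088% of RNA-seq reads and was left out.

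Counts of all protein-coding genes passing filterByExpr (minimum count 10, total 15) were fitted with edgeR 4.0.16 in R 4.3.3, quasi-likelihood test, with 1 mean per group. The library size was the summed S. pombe reads for RNA-seq and all counted reads for CRAC. The standard error is the log2 change divided by the root of the F statistic. DESeq2 1.42.0, other scalings, no filter, library sets and single libraries left out were the alternatives, and the scripts were tested on simulated counts. Library sets used alone were partly added after seeing the data.

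Genes described with every library were, by rule, the most abundant and the most heat-shocked mRNA of each pathway, isozyme pairs, the 5 members with most eIF4B reads, and members called against the majority, 30 in all. HOM3, GCN4 and others outside it were named after their values were seen. The members and lists were chosen with earlier results of these data known. Promoter motifs were not analysed here.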

Additional observations from a re-analysis of the deposited data

Results flagged for a closer look

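Between strains, the heat shock change of 40 members differed in the test of the difference itself. Among the 30 genes described by library this held for 22. The log2 difference, xrn1 deletion minus wild type, was 2.57 for ARG4, 2.34 for ARG1, 1.88 for SAM2, 1.85 for SAM1, 1.70 for ARO2, 1.67 for HIS1 and 1.67 for LEU9. It was 1.53 for MET6, 1.49 for ILV3, 1.49 for ARO4, 1.42 for THR1, 1.27 for MET14, 1.24 for ARO3, 1.19 for TRP3 and 1.10 for LYS20. Smaller differences were 0.99 for LYS21, 0.96 for SER1, 0.94 for ASN2, 0.91 for HOM2, 0.87 for PRO1 and 0.82 for LEU4. GLN1 was the 1 negative value, at -1.34.

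In 36 tests of a library that stood far from its group, over 6 groups of 4 or more CRAC libraries, 7 were found; chance gives about 1 in 20 for normally spread values, which groups holding zeros need not follow. In eIF4A heat shock ILV5 read 114.7 RPM in library 15 beside 0 to 4.08 in the others, ILV3 25.9 RPM in library 15 beside 0, and HOM2 136.7 RPM in library 16 beside 0 to 2.04. In eIF4A at 16 min of glucose withdrawal the group held 1.42% of mRNA reads in library 12 beside 2.06% to 2.18%, and ILV3 read 496.5 RPM in library 45 beside 44.9 to 61.2. MET6 read 1122 RPM in eIF4A control library 11 beside 199 to 429, and 1218 RPM in eIF4B control library 21 beside 1005 to 1025.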

How the results depend on the processing

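Of the repeated counts of called members, 271 stayed within 1.5 times of the value given and 45 did not. Scaled to reads on mRNAs, by TMM and by DESeq2 size factors, the counts were 26, 25 and 27 for eIF4B heat shock (44 given), 0, 0 and 0 at 30 s of glucose withdrawal (8), 1, 0 and 1 at 16 min (15), 5, 3 and 6 with cycloheximide (14), 10, 11 and 10 for eIF4A heat shock (20), and 2, 2 and 2 for Ded1 at 16 min (0). The DESeq2 Wald test called 35 for eIF4A heat shock and 27 and 24 for eIF4B at 30 s and 16 min. At these times it called 4 and 2 for Ded1 and 2 and 2 for eIF4A. Shares of all genes are not given for these repeats, so their counts have no background here. A term for the library series gave 5 for Ded1 at 30 s and 1 at 16 min. Earlier CRAC libraries alone gave 5 for Ded1 at 16 min and 6 for eIF4A heat shock, and later ones 14 for eIF4B and 1 for eIF4A at 30 s. Libraries H to S alone gave 24 for the xrn1 difference and 23 for the unstressed xrn1 deletion (40 and 36 given). The cause was not tested.

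With 1 library left out the counts ranged from 28 to 43 for the xrn1 difference, 17 to 38 for the unstressed xrn1 deletion (17 without M), 0 to 2 for the ski2 difference (2 without I), 8 to 13 (8 without 22) and 0 to 7 for eIF4B at 16 min and 30 s (0 without 72 or 73, 5 without 21 or 26), 4 to 16 with cycloheximide (4 without 99), 12 to 19 for eIF4A heat shock (12 without 54 or 83), 0 to 1 for Ded1 at 30 s (0 without 70) and 0 to 1 at 16 min (1 without 67). All 56 stayed lower in wild-type heat shock whichever library was left out.

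Single genes changed sign in 27 cases. For heat shock CPA1 became 0.24 by TMM and 0.16 by DESeq2 size factors. For cycloheximide against heat shock alone, TMM and size factors gave -0.16 and -0.11 for LEU4, -0.22 and -0.17 for MET6, -0.33 and -0.28 for SAM1, -0.26 and -0.22 for SAM2, -0.14 and -0.099 for HOM2, -0.35 and -0.30 for SER33 and -0.33 and -0.29 for PRO3, and TMM gave -0.025 for ILV5. GLN1 became 0.12 with a term for the set and 0.74 in H to S alone, and with 1 library left out ran from -0.65 to 0.12 (above 0 without F or J). In the xrn1 difference 1 library left out gave -0.48 to 0.16 for ILV5 (above 0 without R or N), up to 0.072 for ASN1 (without N; 0.018 in H to S alone) and -0.14 to 0.42 for PRO3 (below 0 without M or S). None of these strain differences was called. Some of the other changes of sign were called at adjusted p below 0.05. They were CPA1 and SAM2 by TMM, SER33 and PRO3 by both scalings, and GLN1 in H to S alone. No paired analysis was possible because library numbers and letters are unique and shared by no 2 groups.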

Other observations

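HIS3, a marker listed as deleted in this background, had 433 to 4590 reads in the 18 RNA-seq libraries, whereas LEU2 and URA3 had 0 or 1. In wild-type cells HIS3 had 2969 to 4590 reads in control and 433 to 637 in heat shock. The his3Δ1 allele is an internal deletion, so the remaining parts of the gene can be transcribed. The reads were not resolved along the gene here.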
